A study of Mus musculus with 18 samples.

Results

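A set of 10 cytosolic and mitochondrial chaperone genes of the heat shock response was followed through synovial macrophages of healthy mice and of mice given immune complexes (ICs). The set held the HSP70 genes Hspa8, Hspa1a and Hspa1b, the HSP110 gene Hsph1, the HSP90 genes Hsp90aa1 and Hsp90ab1, the J-domain genes Dnaja1 and Dnajb1, and the mitochondrial chaperonin genes Hspd1 and Hspe1. Members were chosen by gene symbol. Chaperones of the endoplasmic reticulum (ER) were not among them. All 10 were found among the 24421 gene symbols of the files, and all 10 were among the 10550 genes with enough counts to be tested.

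Bulk total RNA was sequenced from 3 macrophage subsets sorted from the collagenase-digested joint lining of adult wild-type C57BL/6 mice of both sexes: LYVE1+CX3CR1+, MHCII+CD11c- and MHCII+CD11c+. Each subset was taken from untreated mice and from mice killed 8 h after intravenous IC, formed from ovalbumin and rabbit antibody to ovalbumin. The 6 groups held 3 libraries each, 18 in all, and each library pooled the cells of 6 legs. No source states that the libraries of a group were prepared on separate days. The study's methods mention a removal of batch effects with sva, without naming the batches. The p-values here measure the spread between these pools.

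Heat shock chaperones bind unfolded or newly made proteins and help them to fold, to be moved or to be handed to degradation. HSP70 proteins do this in cycles of ATP hydrolysis that J-domain proteins start and HSP110 proteins reset, and HSP90 proteins receive a narrower range of clients, many of them kinases and receptors. Some of these genes are made at all times (Hspa8, Hsp90ab1), whereas Hspa1a and Hspa1b are known as stress-inducible genes that heat, proteotoxic stress and the handling of tissue can switch on. Heat shock factor 1 drives the inducible genes through heat shock elements, arrays of inverted GAA units in their promoters.

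Because Hspa1a and Hspa1b are near-identical neighbors and Hspd1 and Hspe1 are divergent neighbors, their promoter sequences are shown. The sequences are RefSeq's (GRCm38.p6) and run 5′ to 3′ on the strand of the gene, with heat shock element units in capitals. The stretches before the annotated starts of the paired HSP70 genes are at chr17:34972157-34972406 (Hspa1a, minus strand) and chr17:34959239-34959488 (Hspa1b, minus strand). The stretch that lies in the promoter windows of both divergent chaperonin genes is at chr1:55088053-55088082 (plus strand).
Hspa1a: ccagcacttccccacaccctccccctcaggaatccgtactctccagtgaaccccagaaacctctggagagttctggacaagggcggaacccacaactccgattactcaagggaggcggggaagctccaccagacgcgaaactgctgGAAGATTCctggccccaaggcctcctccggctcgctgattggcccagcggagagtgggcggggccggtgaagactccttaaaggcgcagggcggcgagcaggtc
Hspa1b: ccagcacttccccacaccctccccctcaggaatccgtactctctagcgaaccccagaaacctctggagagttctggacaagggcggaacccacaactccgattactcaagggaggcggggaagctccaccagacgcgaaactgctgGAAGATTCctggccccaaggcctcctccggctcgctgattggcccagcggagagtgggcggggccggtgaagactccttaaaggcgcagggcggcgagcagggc
Hspd1 and Hspe1: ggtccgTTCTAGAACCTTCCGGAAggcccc

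The 250 bases before the starts of Hspa1a and Hspa1b were identical at 247 positions (98.8%). Counted from 1 at the first printed base, with the base of Hspa1a first and that of Hspa1b last, the 3 differences were C44T, T47C and T249G. Both held the same unit pair, GAAGATTC, at the same distance of 104 bases before the start (position -104). Hspd1 and Hspe1 lie head to head on chromosome 1, Hspd1 on the minus strand (55077835 to 55088243) and Hspe1 on the plus strand (55088132 to 55091307), and both of their promoter windows covered the 1 array printed above. That array lay 89 bases before the start of Hspe1 (position -89) and within an untranslated first exon annotated for 1 transcript of Hspd1.

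Windows from 250 bases before to 50 bases after the start were given for 7 of the 10 members. Hspa8, Hsp90aa1 and Hsp90ab1 had no window. The motifs searched were the pairs GAANNTTC and TTCNNGAA, each of which is its own reverse complement, and the triplets GAANNTTCNNGAA and TTCNNGAANNTTC, which contain the pairs. A pair was found in 6 of the 7 members, in all but Dnajb1, and in 17% of all 27025 genes with a window. A triplet was found in 3 of the 7 (Hspd1, Hspe1 and Hsph1) and in 0.662% of all genes. The triplets of Hspd1 and Hspe1 lie in the same array and are not separate sites. That of Hsph1 lay after the annotated start, at position 37 or 16 depending on the window. A match is a description of the sequence, and binding was not measured.

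The shared sequence also bears on counting. Of all 150-base windows of the Hspa1a transcript, 46% occurred unchanged in a transcript of another gene, most often Hspa1b, and the value for Hspa1b was 40.5%. For Hspa8 it was 56%, spread over 5 other genes, and for Hsp90aa1 36.2%. Dnaja1 had 20%, Hspd1 18.6% and Hspe1 14.1%, whereas Hsph1, Dnajb1 and Hsp90ab1 had 0%. The sources used here do not give the rule for reads with more than 1 matching gene, so the split between Hspa1a and Hspa1b is uncertain, and so is the level of each member that shares sequence with another gene.

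Library totals ranged from 245903 to 2172358 counts. The smallest were the MHCII+CD11c- IC libraries 2 (245903) and 1 (381217). Levels of the sort genes followed the labels: Lyve1 was highest in LYVE1+CX3CR1+ macrophages (2372 ± 197 CPM, that is counts scaled to library size with TMM factors; SD, n = 3, untreated), H2-Ab1 was at 20.3 ± 0.202 CPM in them against 4626 ± 105 in MHCII+CD11c- macrophages, and Itgax, which encodes CD11c, was highest in MHCII+CD11c+ macrophages (270 ± 32.1 CPM). All 10 macrophage marker genes were detected in every group. In bulk RNA, fewer cells of a type and less RNA per cell cannot be told apart.

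The chaperone genes took a larger share of the RNA after IC. Together the 10 members held 0.572% to 0.949% of all counts in the 9 untreated libraries and 1.01% to 1.502% in the 9 IC libraries, and these ranges did not overlap. Hspa1a and Hspa1b alone held 0.196% to 0.437% without treatment and 0.450% to 0.761% with IC, ranges that did not overlap either. Whether libraries of different subsets came from the same mice is not stated, so the 9 libraries of a treatment need not be independent. Within each subset, the IC library numbered 1 had the largest share, at 1.42% for LYVE1+CX3CR1+, 1.502% for MHCII+CD11c- and 1.5% for MHCII+CD11c+ macrophages. It was the highest of its 3 IC libraries for 7, 8 and 10 of the 10 members, respectively.

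**Figure D1:**
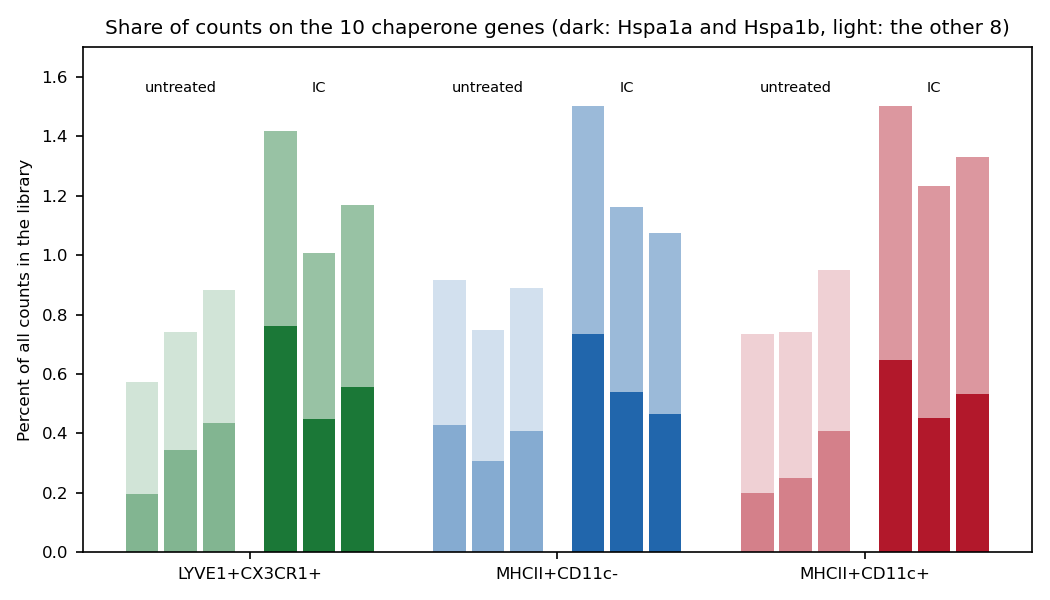
Percent of all counts in each library that fell on the 10 chaperone genes (vertical axis), 1 bar per library, grouped by subset and treatment, with Hspa1a and Hspa1b in the dark lower section and the other 8 genes in the light upper section. Every IC bar (1.01% or more) stands above every untreated bar (0.949% or less).

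The first comparison asked how each subset responded to IC. All 10 members had a higher fitted level with IC in each of the 3 subsets, 30 of 30 log2 fold changes, whereas 47.6% to 49.1% of all genes tested had a positive log2 fold change. Few of these changes passed the test. With edgeR's quasi-likelihood test and Benjamini-Hochberg adjustment over all genes, 1 member rose in LYVE1+CX3CR1+ macrophages (Hspa8; 0.246% of all genes were called higher), 0 in MHCII+CD11c- macrophages (0.55% of all genes) and 1 in MHCII+CD11c+ macrophages (Hsp90ab1; 0.483% of all genes). At an unadjusted p under 0.05 there were 6, 7 and 7 members, beside 8.71%, 14.6% and 9.48% of all genes in either direction. The Wald test of DESeq2 called 2, 1 and 3 members (2.4%, 2.71% and 1.43% of all genes it tested).

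The median log2 fold change of the 10 members was 0.58 for LYVE1+CX3CR1+, 0.51 for MHCII+CD11c- and 0.65 for MHCII+CD11c+ macrophages, and the medians of all genes tested lay between -0.02 and -0.01. The 3 IC libraries stood above the 3 untreated ones with no overlap for 6 of 10 members in LYVE1+CX3CR1+ macrophages (9.6% of all genes), 7 of 10 in MHCII+CD11c- macrophages (5.68%) and 9 of 10 in MHCII+CD11c+ macrophages (8.51%). The members are not independent of each other, since Hspa1a and Hspa1b share sequence and all were measured in the same libraries.

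**Figure D2:**
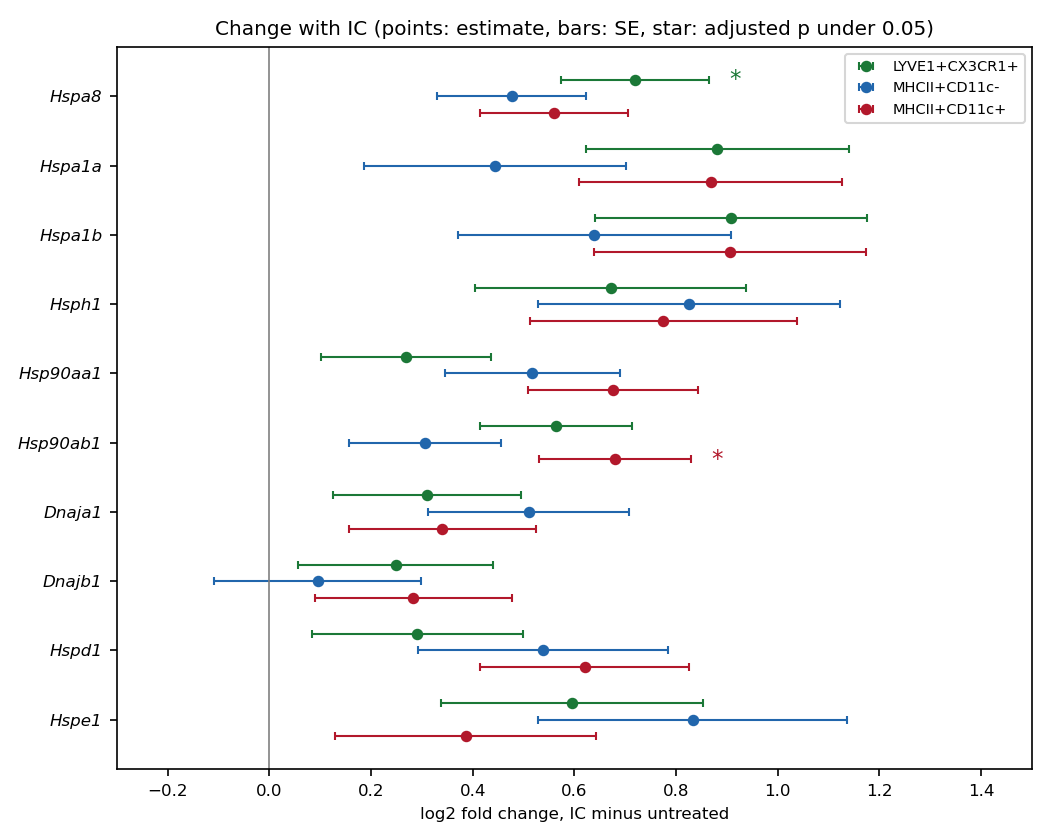
Log2 fold change of each chaperone gene with IC (horizontal axis, IC minus untreated) in the 3 subsets, with points for the estimate, bars for its SE and a star where the adjusted p was under 0.05. All 30 points lie to the right of 0, between 0.09 and 0.91, and 2 carry a star.

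Hspa8 encodes HSC70, the constitutive HSP70 of the cytosol, which also uncoats clathrin vesicles. In LYVE1+CX3CR1+ macrophages it stood at 2109, 1798 and 2339 CPM in the untreated libraries and at 3829, 3156 and 3294 CPM with IC. The IC libraries were all higher, and Hspa8 rose 1.65-fold (log2 fold change 0.72, SE 0.15; adjusted p = 0.0174, edgeR's quasi-likelihood test). The rise did not pass the test without the untreated library 1, the untreated library 2 or the IC library 1 (0 members called in each; adjusted p of Hspa8 up to 0.158), and it passed without each of the other 3 (1 member called).

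In the MHCII+CD11c- subset Hspa8 stood at 2671, 2271 and 2672 CPM without treatment and at 4139, 3280 and 3178 CPM with IC. In MHCII+CD11c+ macrophages the values were 3053, 2767 and 3065 CPM against 4671, 4242 and 4186 CPM. Neither pair of groups overlapped. The log2 fold changes were 0.48 (SE 0.15; adjusted p = 0.114, edgeR) and 0.56 (SE 0.15; adjusted p = 0.0820, edgeR). Without the shallowest library, MHCII+CD11c- IC 2, Hspa8 passed the test in that subset (1 member called; adjusted p = 0.0392, edgeR).

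Hspa1a and Hspa1b encode the inducible HSP70, with both genes giving nearly the same transcript from a single exon. Hspa1a in LYVE1+CX3CR1+ macrophages was at 1133, 1797 and 2198 CPM without treatment and at 4088, 2422 and 2937 CPM with IC. In MHCII+CD11c+ macrophages it was at 1096, 1361 and 2283 CPM against 3633, 2325 and 2702 CPM. The groups did not overlap in either subset, although the spread was wide, with a coefficient of variation of 31.5% and 39.4% in the untreated groups against 13% and 5.7% for Hspa8. Values of Hspa1a in MHCII+CD11c- macrophages were 2381, 1912 and 2338 CPM without treatment and 4022, 2523 and 2480 CPM with IC, so that all 3 IC libraries were higher but only the first stood far from the untreated values.

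The log2 fold changes of Hspa1a were 0.88 (SE 0.26), 0.44 (SE 0.26) and 0.87 (SE 0.26) in the order LYVE1+CX3CR1+, MHCII+CD11c- and MHCII+CD11c+, and those of Hspa1b were 0.91, 0.64 and 0.91 (SE 0.27 each). None passed the adjusted test, with the lowest adjusted p at 0.143 (edgeR). Hspa1b had values of 904 to 2037 CPM over the 9 untreated libraries and 2057 to 3625 CPM over the 9 IC libraries. These ranges nearly touched, and the share of all genes with such a separation is not given here. Libraries of different subsets may share mice, so the 9 need not be independent. Summing the counts of both genes, which removes the uncertain split, left the log2 fold changes at 0.89 (SE 0.26; adjusted p = 0.166, edgeR), 0.53 (SE 0.26; adjusted p = 0.344) and 0.89 (SE 0.26; adjusted p = 0.14).

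Hsph1 encodes an HSP110 protein, a nucleotide exchange factor for HSP70. It was a low-count member, with 30 to 164 counts per library. Its level was 56.6, 36.4 and 58.7 CPM in untreated and 92.5, 73.8 and 75.9 CPM in IC libraries of LYVE1+CX3CR1+ macrophages. In MHCII+CD11c+ macrophages the values were 73.6, 72.3 and 68.5 CPM against 153, 122 and 96.9 CPM. Neither pair overlapped, whereas in MHCII+CD11c- macrophages the untreated library 3 (79.7 CPM) stood above the IC library 3 (63.1 CPM). The log2 fold changes were 0.67, 0.83 and 0.77 (SE 0.26 to 0.30), and none passed the test. Without MHCII+CD11c- IC 3, Hsph1 passed in that subset (1 member called; adjusted p = 0.0395, edgeR).

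HSP90 proteins work as dimers that hold signaling proteins and receptors in a near-native state. Hsp90ab1, the constitutive cytosolic HSP90, was at 1508, 1418 and 1525 CPM in untreated and at 2471, 2341 and 2320 CPM in IC libraries of MHCII+CD11c+ macrophages, the tightest replicates of any member in an IC group (coefficient of variation 3.45%). It rose 1.60-fold (log2 fold change 0.68, SE 0.15; adjusted p = 0.028, edgeR). Although the groups stood well apart, the call was lost in each of the 6 fits that left out 1 library of this comparison (0 members called in each).

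In LYVE1+CX3CR1+ macrophages Hsp90ab1 was at 1139, 1282 and 1246 CPM without treatment and at 1921, 1700 and 1799 CPM with IC. These groups did not overlap either (log2 fold change 0.56, SE 0.15; adjusted p = 0.121, edgeR). Those of MHCII+CD11c- macrophages did, at 1493, 1259 and 1218 CPM against 1985, 1261 and 1652 CPM (log2 fold change 0.31, SE 0.15; adjusted p = 0.347, edgeR).

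Hsp90aa1, the stress-inducible cytosolic HSP90, was at 446, 430 and 467 CPM in untreated and at 839, 688 and 623 CPM in IC libraries of MHCII+CD11c+ macrophages (log2 fold change 0.68, SE 0.17; adjusted p = 0.0539, edgeR). For MHCII+CD11c- macrophages the values were 438, 428 and 386 CPM against 743, 576 and 483 CPM (log2 fold change 0.52, SE 0.17; adjusted p = 0.142, edgeR). Both subsets had IC values above all untreated ones. In LYVE1+CX3CR1+ macrophages the IC values of 328, 246 and 342 CPM overlapped the untreated values of 239, 270 and 253 CPM (log2 fold change 0.27, SE 0.17; adjusted p = 0.738, edgeR).

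Dnaja1 and Dnajb1 encode J-domain proteins that bring clients to HSP70 and start its ATP cycle. Dnaja1 in MHCII+CD11c- macrophages was at 127, 170 and 193 CPM without treatment and at 207, 252 and 240 CPM with IC, with no overlap (log2 fold change 0.51, SE 0.20; adjusted p = 0.209, edgeR). Its log2 fold change was 0.31 in LYVE1+CX3CR1+ and 0.34 in MHCII+CD11c+ macrophages. Dnajb1, which is classed with the most heat-inducible J-domain genes, had the smallest fitted changes of the 10 in LYVE1+CX3CR1+ (0.25), MHCII+CD11c- (0.09) and MHCII+CD11c+ macrophages (0.28), with SEs of 0.19 to 0.20. Among MHCII+CD11c- macrophages its untreated libraries (157, 264 and 230 CPM) enclosed 2 of the 3 IC libraries (298, 200 and 200 CPM), and its log2 fold change turned to -0.12 in the lowest of the fits that left out 1 library.

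Hspd1 encodes HSP60 and Hspe1 its lid HSP10, which together form the folding chamber of the mitochondrial matrix. Hspd1 in MHCII+CD11c+ macrophages was at 74.6, 63.8 and 71.9 CPM without treatment and at 117, 106 and 102 CPM with IC (log2 fold change 0.62, SE 0.21; adjusted p = 0.215, edgeR). The MHCII+CD11c- libraries had 36.0, 47.7 and 49.0 CPM against 68.0, 64.0 and 62.1 CPM (log2 fold change 0.54, SE 0.25; adjusted p = 0.302, edgeR). Both pairs of groups were apart. In LYVE1+CX3CR1+ macrophages the lowest IC value (61.5 CPM) lay below the highest untreated value (62.0 CPM), and the log2 fold change was 0.29.

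Hspe1, the least counted member, had 11 to 106 counts per library. In MHCII+CD11c- macrophages it was at 27.9, 28.1 and 24.5 CPM without treatment and at 49.7, 41.4 and 50.1 CPM with IC, the latter from 19, 11 and 50 counts (log2 fold change 0.83, SE 0.30; adjusted p = 0.181, edgeR). The libraries did not overlap there or in LYVE1+CX3CR1+ macrophages (log2 fold change 0.60, SE 0.26), and they overlapped in MHCII+CD11c+ macrophages (0.39, SE 0.26). The fitted changes of Hspd1 and Hspe1 differed by less than the sum of their SEs in each subset, as did those of Hspd1 and Hsp90ab1. Whether the heat shock element array that Hspd1 and Hspe1 share bears on their levels was not tested.

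**Figure D3:**
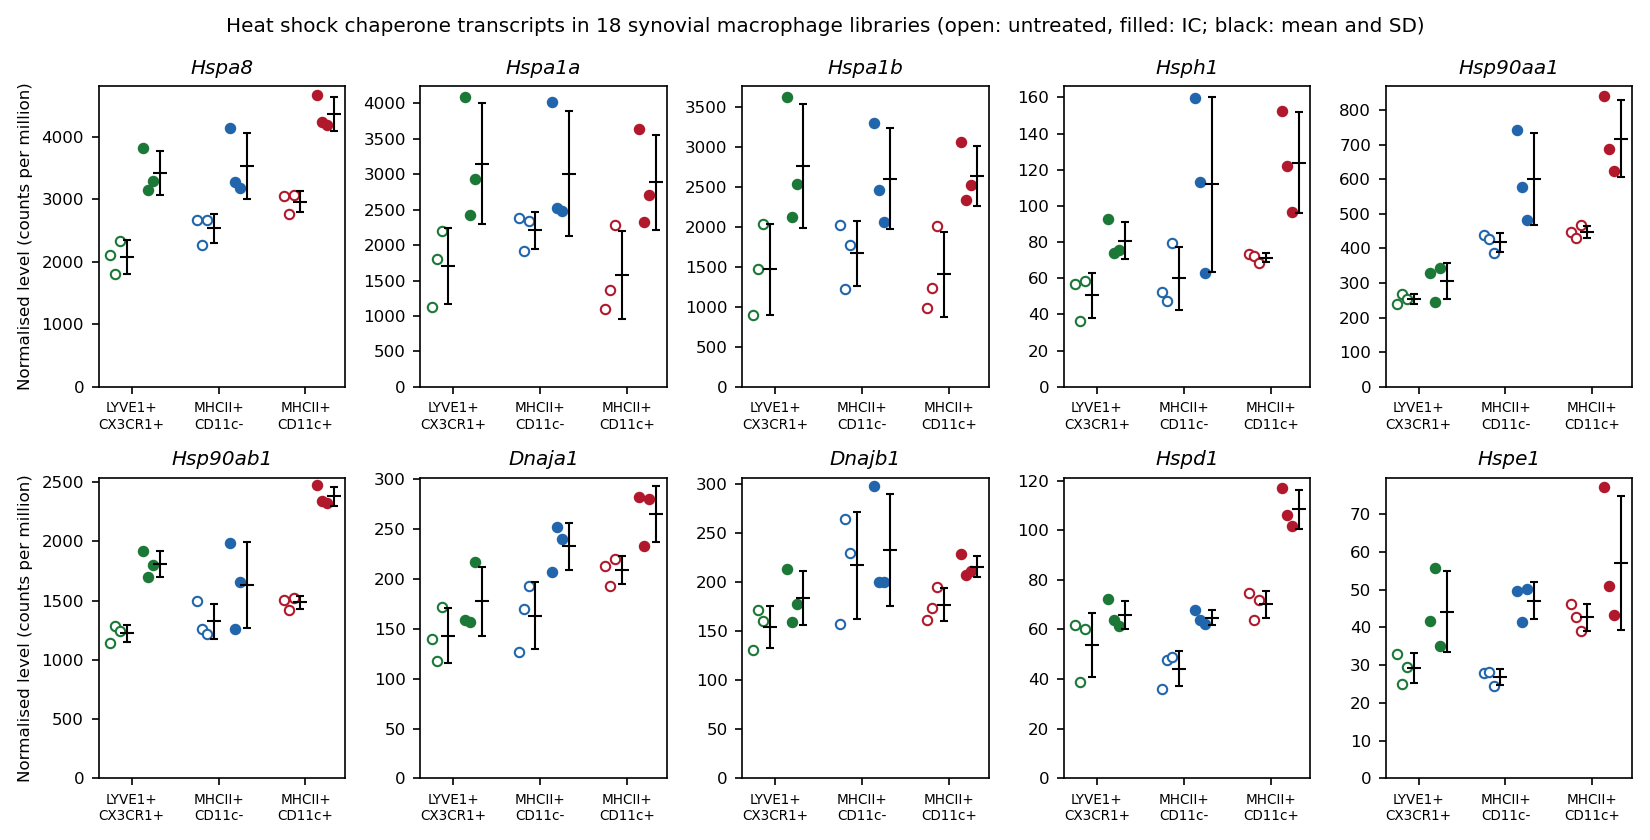
Normalized level of each chaperone gene in CPM (vertical axes start at 0) in the 3 subsets, with open points for untreated and filled points for IC libraries and black bars for the mean and SD of 3 libraries. Over the 6 groups the coefficient of variation was 5.7% to 15% for Hspa8 and 3.45% to 22.2% for Hsp90ab1. It was 11.7% to 39.4% for Hspa1a and 14.2% to 38.5% for Hspa1b. The widest spread of Hspa1a was in untreated MHCII+CD11c+ macrophages, from 1096 to 2283 CPM.

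Whether the IC response differed between subsets was tested directly as the difference of the 2 log2 fold changes. Of the 10 members, 0 passed in any of the 3 pairs of subsets with edgeR (0%, 0.00948% and 0.00948% of all genes) or with DESeq2 (0.353%, 0.524% and 0.00557% of all genes it tested), and 0 had an unadjusted p under 0.05 (6.52%, 4.49% and 6.09% of all genes). The lowest adjusted p among members was 0.852 for LYVE1+CX3CR1+ against MHCII+CD11c-, 1 for LYVE1+CX3CR1+ against MHCII+CD11c+ and 0.827 for MHCII+CD11c+ against MHCII+CD11c- macrophages. The estimated differences for Hsp90aa1, whose fitted change with IC was smallest in LYVE1+CX3CR1+ macrophages, were -0.25 (SE 0.24) against MHCII+CD11c- and -0.41 (SE 0.24) against MHCII+CD11c+ macrophages. The SEs of these differences ranged from 0.20 to 0.40 over the members, so a difference of response of that size was not detectable here.

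Signs of other cells moved with IC as well, some up and some down. The sum of 10 neutrophil marker genes was 13.2 to 15.6 CPM in untreated and 19.2 to 163 CPM in IC libraries of LYVE1+CX3CR1+ macrophages, 750 to 1854 against 1499 to 4154 CPM in MHCII+CD11c- and 20.4 to 704 against 1017 to 2274 CPM in MHCII+CD11c+ macrophages. Of the 8 that could be tested, 0, 0 and 2 were called higher with IC, and 7, 8 and 8 had a positive log2 fold change. In LYVE1+CX3CR1+ macrophages the defining genes S100a8, Camp, Ltf, Ngp, Mpo and Elane were at 0 in every untreated library, and Mpo and Elane were at 0 in every IC library. The sum of 5 mast cell markers was 6.11 to 213 CPM in untreated and 115 to 478 CPM in IC libraries of MHCII+CD11c- macrophages, and 6.30 to 82.2 against 44.7 to 266.6 CPM in MHCII+CD11c+ macrophages, with 0 called and all 5 positive in both subsets, whereas in LYVE1+CX3CR1+ macrophages it was 0 to 52.7 against 0 to 31.7 CPM. Of 7 monocyte markers, 0, 1 (Plac8) and 2 (Plac8 and Vcan) were called higher with IC in LYVE1+CX3CR1+, MHCII+CD11c- and MHCII+CD11c+ macrophages, and their sums were 3021 to 3682 against 3479 to 3958, 2723 to 3317 against 3191 to 3736 and 2225 to 2856 against 2381 to 3302 CPM. Dendritic cell markers went down, their sum (7 genes) being 7 to 9.4 untreated against 2.11 to 3.95 CPM with IC in LYVE1+CX3CR1+ macrophages. It was 112 to 156 against 52.3 to 91.1 CPM in MHCII+CD11c- and 242 to 440 against 187 to 203 CPM in MHCII+CD11c+ macrophages. Of the 5 tested, 0, 1 and 1 were called lower in the same order. Of 5 erythroid markers, 0 had a positive log2 fold change in any subset and 0 were called. The part of these cells in the chaperone levels was not tested.

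Sorting from digested tissue can itself switch on stress genes, so 24 early response genes known to rise on dissociation (Fos, Jun, Egr1 and the like) were measured beside the chaperones. Their sum was 23080 to 26040 CPM in untreated and 22870 to 29190 CPM in IC libraries of LYVE1+CX3CR1+ macrophages, 28020 to 33330 against 18410 to 26170 CPM in MHCII+CD11c-, and 22820 to 26040 against 21060 to 24330 CPM in MHCII+CD11c+ macrophages. With IC, 0 of the 24 rose in any subset, although 16, 5 and 8 of them had a positive log2 fold change in the same order, and Btg2 fell in both MHCII+ subsets (log2 fold change -0.70, adjusted p = 0.0237 in MHCII+CD11c- macrophages and -0.83, adjusted p = 0.0099 in MHCII+CD11c+ macrophages, edgeR). The part of tissue handling in the chaperone levels was not tested. The share of counts on the ribosomal RNA gene Rn45s was 8.59% to 15.2% in untreated and 7.92% to 16.3% in IC libraries.

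The second comparison asked how the subsets differed from each other without treatment and with IC. Hsp90aa1 separated LYVE1+CX3CR1+ macrophages from both MHCII+ subsets under both conditions. Without treatment its level of 254 ± 15.5 CPM (SD, n = 3) in LYVE1+CX3CR1+ macrophages was lower than the 417 ± 27.6 CPM of MHCII+CD11c- macrophages (log2 difference -0.72, SE 0.17; adjusted p = 0.00536, edgeR) and the 448 ± 18.5 CPM of MHCII+CD11c+ macrophages (-0.82, SE 0.17; adjusted p = 6e-04, edgeR). The 3 LYVE1+CX3CR1+ libraries lay below all 6 others.

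Other gene lists differed in the same comparisons. Of the 24 dissociation genes, 9 were called lower in LYVE1+CX3CR1+ than in MHCII+CD11c- macrophages without treatment (7.12% of all genes) and 2 with IC (6.45%), with 0 higher. Against MHCII+CD11c+ macrophages 7 were lower and 3 higher without treatment (12.4% and 9.48% of all genes). With IC, 6 were lower and 2 higher (11.5% and 8.21% of all genes). Markers of B cells summed to 2.11 CPM or less in each LYVE1+CX3CR1+ library and to 62.5 to 353.9 CPM in the libraries of the MHCII+ subsets, and all 5 were called lower in LYVE1+CX3CR1+ macrophages in each of the 4 comparisons. Neutrophil markers (7 or 8 of 8 tested), monocyte markers (5 of 7, with 1 or 2 higher) and dendritic cell markers (2 to 5 of 5) were also called lower in them, as were 0 to 5 of 5 mast cell markers. Some dendritic and monocyte genes are made by macrophages as well. What these cells and genes contribute to the chaperone differences between subsets was not tested.

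With IC, Hsp90aa1 was at 305 ± 52.2 CPM in LYVE1+CX3CR1+ macrophages against 601 ± 132 CPM in MHCII+CD11c- (log2 difference -0.97, SE 0.17; adjusted p = 0.000369, edgeR) and 717 ± 111 CPM in MHCII+CD11c+ macrophages (-1.23, SE 0.17; adjusted p = 4.94e-06, edgeR). The last is a level 0.427 times that of MHCII+CD11c+ macrophages. Omitting any single library left all 4 of these calls in place. Between the MHCII+ subsets the log2 difference did not pass the test, at 0.10 (SE 0.17) without treatment and 0.26 (SE 0.17) with IC.

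Against MHCII+CD11c- macrophages, Hsp90aa1 was the only member called, without treatment (7.12% of all genes were called lower in LYVE1+CX3CR1+ macrophages and 4.32% higher) and with IC (6.45% lower and 3.32% higher). Without the untreated MHCII+CD11c- library 1, Dnajb1 was called lower as well (2 members called; adjusted p = 0.0331, edgeR). Against MHCII+CD11c+ macrophages, 3 of 10 members were lower in LYVE1+CX3CR1+ macrophages without treatment (12.4% of all genes) and 3 with IC (11.5% of all genes), and 0 were higher (9.48% and 8.21% of all genes). Hsp90aa1 and Dnaja1 were called in both, Hspa8 without treatment and Hspd1 with IC.

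Without treatment, Hspa8 was at 2082 ± 271 CPM in LYVE1+CX3CR1+ and 2962 ± 169 CPM in MHCII+CD11c+ macrophages (log2 difference -0.51, SE 0.15; adjusted p = 0.0114, edgeR), and Dnaja1 was at 143 ± 27.4 against 209 ± 14.1 CPM (-0.54, SE 0.18; adjusted p = 0.034, edgeR). Without the untreated LYVE1+CX3CR1+ library 2, Hsp90aa1 alone was called (1 member), Hspa8 having an adjusted p of 0.101 (edgeR). Dnaja1 was lost in 4 of the 6 fits that left out 1 library. All 3 LYVE1+CX3CR1+ libraries lay below all 3 MHCII+CD11c+ libraries for 7 of 10 members (21.6% of all genes), these 3 and Hsp90ab1, Hsph1, Hspd1 and Hspe1, whose log2 differences of -0.28 to -0.54 did not pass the test.

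With IC, Dnaja1 was at 178 ± 34.5 CPM in LYVE1+CX3CR1+ and 265 ± 28 CPM in MHCII+CD11c+ macrophages (log2 difference -0.57, SE 0.18; adjusted p = 0.0273, edgeR), and Hspd1 was at 65.8 ± 5.64 against 108 ± 7.98 CPM (-0.71, SE 0.21; adjusted p = 0.0137, edgeR). Each of these calls was lost in 4 of the 6 fits that left out 1 library, and without MHCII+CD11c+ IC 1 or LYVE1+CX3CR1+ IC 2 the count fell from 3 to 1 (Hsp90aa1). With IC, 6 of 10 members lay lower in all 3 LYVE1+CX3CR1+ libraries (20.3% of all genes). Hspa1a and Hspa1b showed no such order. Their log2 differences between LYVE1+CX3CR1+ and MHCII+CD11c+ macrophages were 0.11 and 0.06 without treatment (SE 0.26 and 0.27) and 0.13 and 0.06 with IC.

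**Figure D4:**
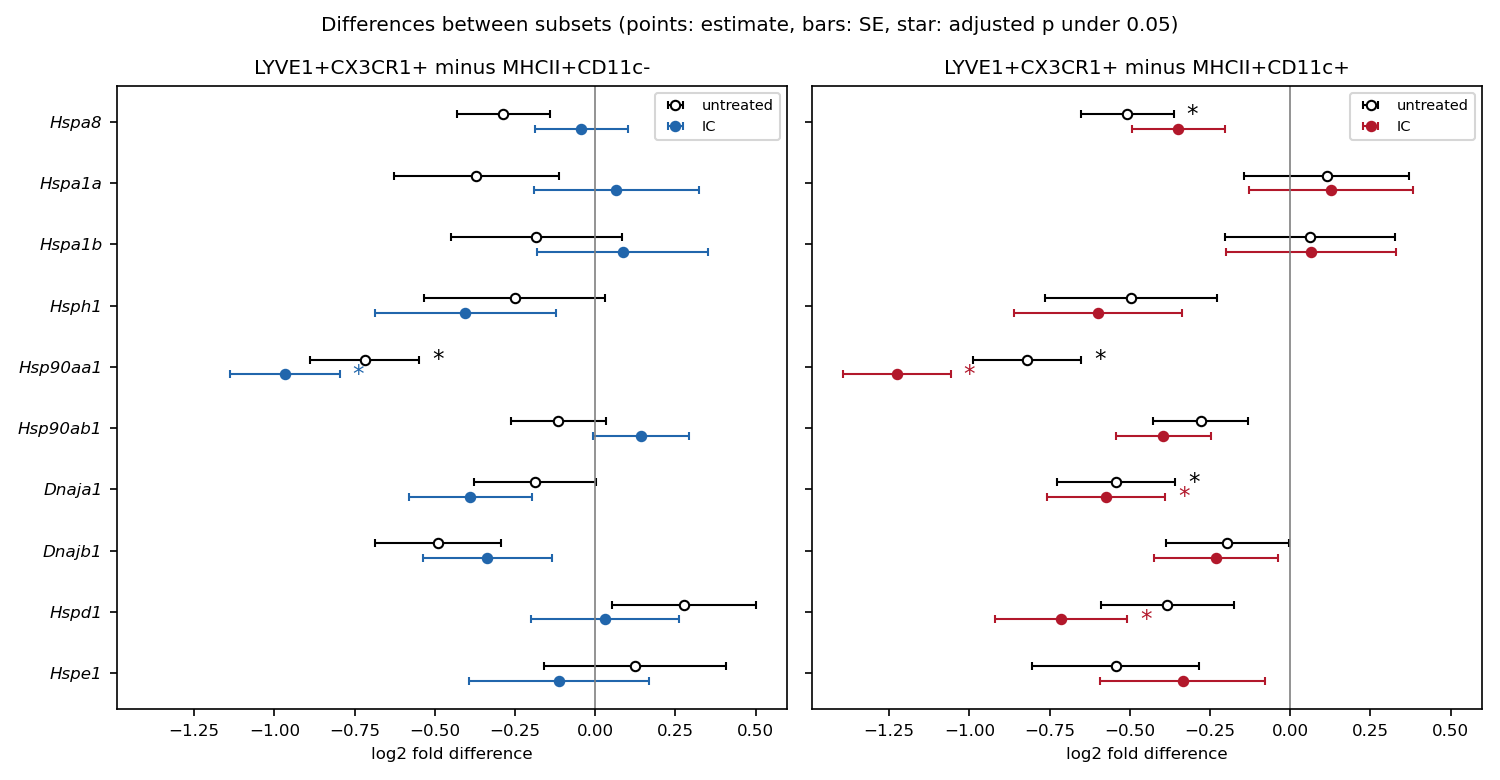
Log2 difference in level of each chaperone gene between LYVE1+CX3CR1+ macrophages and MHCII+CD11c- (left) or MHCII+CD11c+ macrophages (right), untreated (open) and with IC (filled), with points for the estimate, bars for the SE and a star where the adjusted p was under 0.05. Hsp90aa1 carries a star in all 4 comparisons, at -0.72, -0.97, -0.82 and -1.23.

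Between the MHCII+ subsets, 0 members passed without treatment (1.89% of all genes were called higher in MHCII+CD11c+ macrophages and 1.6% lower), with 2 members at an unadjusted p under 0.05 (16.1% of all genes) and 0 called by DESeq2 (5.09% of all genes it tested). The largest differences were those of the chaperonin pair, Hspd1 (70.1 ± 5.63 against 44.3 ± 7.14 CPM; log2 difference 0.66, SE 0.22; adjusted p = 0.105, edgeR) and Hspe1 (42.7 ± 3.59 against 26.9 ± 2.02 CPM; 0.67, SE 0.28; adjusted p = 0.215, edgeR). For both, all 3 MHCII+CD11c+ libraries were higher.

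With IC, Hsp90ab1 was higher in MHCII+CD11c+ (2377 ± 82.1 CPM) than in MHCII+CD11c- macrophages (1633 ± 362 CPM; log2 difference 0.54, SE 0.15; adjusted p = 0.0487, edgeR), 1 of 10 members where 1.77% of all genes were called higher and 1.07% lower. It was called in only 1 of the 6 fits that left out 1 library, the one without MHCII+CD11c- IC 1, and the count was 0 without MHCII+CD11c- IC 2, MHCII+CD11c- IC 3 or any one of the MHCII+CD11c+ IC libraries. Hspd1 stood at 108 ± 7.98 against 64.7 ± 3.01 CPM with no overlap (0.74, SE 0.23; adjusted p = 0.0845, edgeR).

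Ordered by mean level over the 6 groups, IC-treated MHCII+CD11c+ macrophages were highest for 7 of the 10 members (Hspa8, Hsp90aa1, Hsp90ab1, Hsph1, Dnaja1, Hspd1 and Hspe1), and untreated LYVE1+CX3CR1+ macrophages were lowest for 6 (Hspa8, Hsp90aa1, Hsp90ab1, Hsph1, Dnaja1 and Dnajb1). Hspa1a and Hspa1b were highest in IC-treated LYVE1+CX3CR1+ macrophages, at 3149 ± 853 and 2762 ± 776 CPM, but the 3 IC groups lay within 1 SD of each other. Dnajb1 was highest in IC-treated MHCII+CD11c- macrophages at 233 ± 56.7 CPM, close to the untreated level of that subset, 217 ± 54.7 CPM.

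Levels of different genes were compared per kilobase of the principal GENCODE transcript. In untreated LYVE1+CX3CR1+ macrophages Hspa8 was the most abundant member at 870 ± 113 CPM per kb, followed by Hspa1a (576 ± 181), Hspa1b (525 ± 202) and Hsp90ab1 (485 ± 29.6), which lay within the spread of one another. Hsp90aa1 (77.3 ± 4.73), Dnajb1 (51.5 ± 7.07) and Hspe1 (37.8 ± 5.15) came next, and Dnaja1 (25.5 ± 4.88), Hspd1 (22.2 ± 5.32) and Hsph1 (13.3 ± 3.25) were lowest. Thus the inducible HSP70 genes were among the most abundant chaperone transcripts in libraries of untreated mice. With IC, in MHCII+CD11c+ macrophages, Hspa8 reached 1824 ± 111 CPM per kb, and Hspa1a (973 ± 227), Hsp90ab1 (943 ± 32.6) and Hspa1b (943 ± 134) again lay together.

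Across the 18 libraries the log2 CPM of Hspa1a and Hspa1b were most alike (Pearson's r = 0.967), which their shared sequence bears on. Hspa8 followed Hsph1 (r = 0.899) and Hsp90ab1 (r = 0.891), and Hspd1 followed Hspe1 (r = 0.803). Dnajb1 stood apart from the chaperonin genes, with r = 0.21 for Hspe1 and 0.242 for Hspd1. These values describe libraries that share groups and scaling. After the mean of each group was subtracted, r was 0.956 for Hspa1a with Hspa1b, 0.785 for Hspa8 with Hsph1, 0.512 for Hspa8 with Hsp90ab1 and 0.351 for Hspd1 with Hspe1. Other genes were ranked by r with the mean log2 CPM of the 10 members, each member first standardized over the 18 libraries. Group means were not subtracted for this ranking, so it includes differences between groups. The highest genes (mean log2 CPM of at least 4) were Pdia6 (r = 0.901), Hspa5 (r = 0.9), Lrrc59 (r = 0.897), Hyou1 (r = 0.882), Pdia4 (r = 0.846), Fcgr2b (r = 0.846), Hsp90b1 (r = 0.838) and Fgr (r = 0.838). Of these, Pdia6, Hspa5, Hyou1, Pdia4 and Hsp90b1 encode chaperones or folding enzymes of the ER.

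Other genes of protein folding were counted beside the members. Some ER chaperones rose with IC. Hspa5 (BiP) and Pdia6, a disulfide isomerase, were called in all 3 subsets and Hyou1, an ER HSP110 relative, in LYVE1+CX3CR1+ and MHCII+CD11c- macrophages. That made 3, 3 and 2 of 16 called, beside 0.246%, 0.55% and 0.483% of all genes called higher. Hspa5 rose by a log2 fold change of 1.02 in LYVE1+CX3CR1+ (SE 0.15; adjusted p = 0.000984, edgeR), 0.66 in MHCII+CD11c- (adjusted p = 0.0316) and 0.65 in MHCII+CD11c+ macrophages (adjusted p = 0.0442). The medians of the 16 were 0.66, 0.46 and 0.38 in the order LYVE1+CX3CR1+, MHCII+CD11c- and MHCII+CD11c+, beside 0.58, 0.51 and 0.65 for the 10 members. Of 21 other HSP70, HSP110 and J-domain genes, 0 were called in any subset (medians 0.08, 0.35 and 0.13).

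Among 22 co-chaperones, Fkbp5, a glucocorticoid-responsive HSP90 partner, was the only one called, in LYVE1+CX3CR1+ macrophages (log2 fold change 1.85, SE 0.37; adjusted p = 0.0163, edgeR). None of 14 subunits of the cytosolic chaperonin TRiC and prefoldin, 14 other mitochondrial chaperones and proteases, 31 proteasome subunits, 3 heat shock factors and regulators, or 3 small heat shock genes passed the test in any subset. Their medians with IC lay at 0.11, 0.16 and 0.09 for TRiC and prefoldin, 0.03, 0.22 and 0.09 for the mitochondrial list, and 0.23, 0.22 and 0.29 for the proteasome, below the medians of the 10 members. The 3 heat shock factors and regulators had medians of 0.30, 0.24 and 0.60, and the 3 small heat shock genes 0.44, 0.67 and -0.53.

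**Figure D5:**
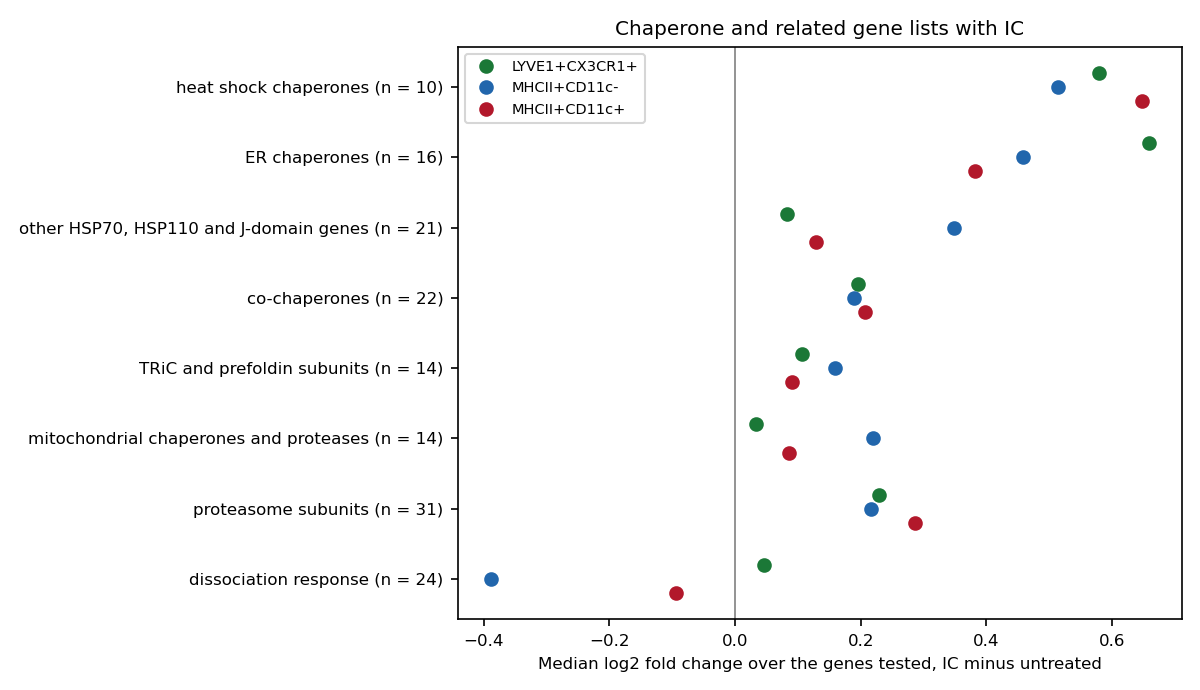
Median log2 fold change with IC (horizontal axis) of the 10 chaperone genes and of 7 other gene lists in the 3 subsets, n being the number of genes tested. The 10 heat shock chaperones lie between 0.51 and 0.65 and the ER chaperones between 0.38 and 0.66.

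Between subsets, folding genes called lower in LYVE1+CX3CR1+ than in MHCII+CD11c+ macrophages without treatment (12.4% of all genes were) included 3 of 14 TRiC and prefoldin subunits (Cct4, Cct5 and Cct7) and 6 of 16 ER chaperones, among them Serp1 (log2 difference -1.26; adjusted p = 2.12e-05, edgeR), Creld2 (-1.28; adjusted p = 0.0116) and Sdf2l1 (-1.17; adjusted p = 0.00115). Cct5 had a log2 difference of -0.88 (adjusted p = 0.000306, edgeR). With IC, 3 of 14 and 3 of 16 were lower, beside 11.5% of all genes. Hspb1, a small heat shock protein of the cytosol, went the other way and was higher in LYVE1+CX3CR1+ macrophages, by 2.23 without treatment (SE 0.57; adjusted p = 0.00471, edgeR) and 2.56 with IC (SE 0.59; adjusted p = 0.00232, edgeR). Its level was low, since all 9 small heat shock genes together had 24.3 to 30.7 CPM in untreated LYVE1+CX3CR1+ and 16.8 to 23.6 CPM in untreated MHCII+CD11c+ libraries. Of the 3 tested, 1 had a positive log2 difference without treatment and 2 with IC. Against MHCII+CD11c- macrophages, 0 of the 3 were called in either condition.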

How the data were processed

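Counts per gene symbol were deposited by the authors as raw values without normalization, 1 table per library. Per the labels, libraries were made from total RNA with a stranded pico-input kit and sequenced as paired-end reads. The submitters' processing notes name Trim Galore, FastQC, HISAT2, featureCounts and the build mm10. Versions, annotation and the handling of multiply matching reads are not given in the sources used here. In R 4.3.3, edgeR 4.0.16 gave TMM factors, scaled CPM and log2 CPM (prior count 2), and its filterByExpr kept 10550 genes at a minimum count of 10 and a minimum total of 15. A single quasi-likelihood model held the 18 libraries as 6 groups. P-values were adjusted per comparison by Benjamini-Hochberg, and those under 0.05 were called. The SE is the log2 fold change divided by the square root of F. Totals ranged from 245903 to 2172358 counts, with a median of 1526180, and 3 counts in the shallowest library equal 11.3 CPM. Intervals were not computed, and SEs cover the spread between libraries.

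The members and gene lists were chosen with earlier results of these data known, and the lists were written from general knowledge. Named were all members, up to 4 called genes of each list with the largest change, and the 8 genes most like the members' standardized mean. The test was run on simulated counts before use. Alternatives were DESeq2 1.42.0 (its Wald test, or its size factors in edgeR), genes unfiltered or with 10 or more counts in each library, models of only the groups compared, blocks for replicate number or mouse pool, a surrogate variable (sva 3.50.0), Hspa1a and Hspa1b summed, and each library left out in turn. Promoters and coordinates are those of RefSeq and GENCODE vM21 on GRCm38, counted from 1. No 2 libraries of a group agreed within sampling noise (smallest chi-square per gene 3.42). A combined table of the series was not used here.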

Additional observations from a re-analysis of the deposited data

How the results depend on the processing

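The direction of the IC change kept its sign for all members in the settings tried for single genes, except for Dnajb1 in MHCII+CD11c- macrophages, which ranged from -0.12 (adjusted p = 0.836, edgeR) to 0.25 when 1 library was left out. The number of members called moved more, and the cause was not tested. With IC in LYVE1+CX3CR1+ macrophages 1 member was called, against 2 with the Wald test of DESeq2, 4 with no filter on low counts, 2 with a surrogate variable, 4 in a fit to only the libraries compared, and 0 to 1 when 1 library was left out. In MHCII+CD11c- macrophages the 0 became 1 with DESeq2, 1 with no filter, 1 with a surrogate variable and 0 to 1 with a library left out. In MHCII+CD11c+ macrophages the 1 became 3 with DESeq2, 5 with no filter, 2 where every library needed 10 counts, 3 with a surrogate variable, 4 with only the libraries compared, and 0 in each fit with a library left out. With a library left out, 13 to 53, 52 to 182 and 14 to 63 of all genes were called in the same order of subsets. DESeq2 called 2.4%, 2.71% and 1.43% of all genes it tested. For the other settings the share over all genes is not given here, so their member counts cannot be set against it.

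Between LYVE1+CX3CR1+ and MHCII+CD11c+ macrophages with IC the 3 became 5 with DESeq2, 1 with no filter, 5 with a surrogate variable, 6 with only the libraries compared, and 1 to 2 with a library left out. Without treatment that count ranged from 1 to 3 with a library left out, and that between LYVE1+CX3CR1+ and MHCII+CD11c- macrophages from 1 to 2. Between the MHCII+ subsets with IC the 1 became 0 with the size factors of DESeq2, 2 with at least 10 counts in every library, 0 with only the libraries compared, and 0 to 1 with a library left out. With a library left out, 1577 to 1734, 1815 to 1960, 805 to 1018 and 167 to 309 of all genes were called in these comparisons, in the order given. The share over all genes in the other settings is not given here. DESeq2 called more of 90 other folding genes: 2 against 1 (LYVE1+CX3CR1+ and MHCII+CD11c-, untreated), 5 against 2 and 1 against 0 (MHCII+ subsets, untreated and IC). With IC the counts were 11 against 4, 10 against 3 and 4 against 2 in LYVE1+CX3CR1+, MHCII+CD11c- and MHCII+CD11c+ macrophages. There DESeq2 called 2.4%, 2.71% and 1.43% of all genes it tested, and edgeR called 0.246%, 0.55% and 0.483% higher. Between the untreated MHCII+ subsets DESeq2 called 5.09%, and edgeR 1.89% higher and 1.6% lower. How many of the 90 DESeq2 tested is not given here. With IC in LYVE1+CX3CR1+ macrophages it tested 6467 genes, against 10550 for edgeR. The larger counts therefore cannot be read as particular to folding genes.

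Whether same-numbered libraries shared a pool of mice is not stated in the labels. Correlations of deviations from the group means were -0.0455 to 0.132 for same-numbered libraries of 1 treatment (median 0.036, 1 of 18 over 0.1). Differently numbered libraries of 1 treatment had -0.13 to 0.078 (median -0.0247, 0 of 36 over 0.1). By these medians same-numbered libraries were more alike. Deviations from a group mean cancel within the group, so these medians are tied to each other and not separate evidence. A shared pool was not tested. With the replicate block, 3 members were called with IC in MHCII+CD11c+ macrophages against 1, and 4 other folding genes against 2 between the untreated MHCII+ subsets. With the replicate block by pool of mice, 5 against 3 were called between LYVE1+CX3CR1+ and MHCII+CD11c+ macrophages with IC. The share over all genes with these blocks is not given here. In the shallow MHCII+CD11c- IC libraries, members such as Hspe1 rested on 11 to 50 counts.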

Other observations

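Hspa1l, a testis-type HSP70 gene that starts beside Hspa1a on the opposite strand, was read from the same files although it is not one of the 10 members. Its level was 39.5 ± 10.7 CPM (SD, n = 3) in LYVE1+CX3CR1+, 58.3 ± 7.05 in MHCII+CD11c- and 33.5 ± 13.6 CPM in MHCII+CD11c+ macrophages without treatment, and 56.7 ± 6.66, 52.4 ± 35.4 and 54.6 ± 30.4 CPM with IC. Of the 150-base windows of its transcript, 70.2% occurred unchanged in transcripts of other genes, most often Gm10501, so its level is uncertain.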
